A study of Mus musculus with 8 samples.

Results

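The step from the all-lymphoid progenitor (ALP) to the prepro natural killer cell (preproNK) was followed in mice that lack Nfil3, across all genes that could be named from a single probe set. The comparison used the 2 arrays labelled Nfil3 knockout (KO) preproNK and the 2 arrays labelled KO ALP, chosen by their labels, which are 4 of the 8 arrays of the series. The other 4 arrays hold the same populations from wild-type (WT) mice, 2 arrays each, and were used here only where the KO step is set beside the WT step. WT and KO mice alike carried an Id2-GFP reporter, whose green fluorescence follows the activity of Id2, and all samples are from their bone marrow. The marrow was depleted of lineage-positive cells, and the sorted cells were lysed at once without culture. The labels do not give the Nfil3 allele, the ages, the number of mice behind a sample or the surface markers of the sort. Replicate 1 and replicate 2 were processed on 2 dates, and each date holds 1 array of each group. Paired values below are given in that order, replicate 1 before replicate 2.

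Natural killer (NK) cells are innate lymphocytes that kill infected or transformed cells and release cytokines such as interferon gamma. They arise in bone marrow from lymphoid progenitors that shut down stem cell and B lineage genes and switch on Id2, the interleukin 2 receptor beta chain and T-box factors. Nfil3 is a basic leucine zipper transcription factor needed for the development of NK cells, and the series title names its requirement along that path as the subject. The same early marrow fraction borders on progenitors of other innate lymphoid cells and of T cells, which share many of these genes.

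The targeted gene was checked first. Nfil3 read 3.41 and 4.15 (log2 expression value) on the KO ALP arrays and 3.84 and 3.57 on the KO preproNK arrays, against 4.74 to 6.89 on the 4 WT arrays. All 4 KO values lay below all 4 WT values, and the array medians over all probe sets were 3.93 to 4.01 on the KO arrays. It was not settled here if this probe set reads the stretch removed in the knockout, so its level checks the labels only as far as that holds. Between the KO groups it differed by -0.07 (SE 0.38, adjusted p = 0.991).

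Array signals carry no read depth, and precision is limited by having 2 arrays a group. The KO ALP arrays correlated with each other at 0.936 across tested genes, the KO preproNK arrays at 0.963, and arrays of the different KO groups at 0.827 to 0.861. KO ALP replicate 2 had a narrower spread of values than the other 3 KO arrays, with an SD over probe sets of 1.66 against 1.82 to 1.88, and 884 genes at a log2 value of 8 or more against 1350 to 1498. Sex-linked genes went with the replicate number. Xist read 3.10 and 9.30 in KO ALP and 3.33 and 8.78 in KO preproNK, so this difference is balanced between the groups compared. In the WT arm, preproNK replicate 2 stood apart, with correlations of 0.504 to 0.747 with the other 7 arrays.

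The labels were checked against defining genes. The KO ALP arrays had the lymphoid progenitor genes Dntt at 10.48 or above and Flt3 at 8.64 or above, with Kit at 5.90 and 4.59. The KO preproNK arrays had Id2 at 9.86 or above, Il2rb at 8.90 or above, Tbx21 at 7.84 and 8.82 and the receptor gene Klrk1 at 7.79 and 7.26. They did not have Ncr1 above the array medians. Of the other NK receptor genes taken as defining, Cd244a was lower in KO preproNK than in KO ALP, and Klrb1c did not pass the test given below. In KO ALP the recombinase gene Rag1 was near the array medians, and its fall did not pass that test either. The KO preproNK arrays also had the T cell genes Cd3e and Cd3g at 9.91 or above, which encode parts of the T cell receptor complex. It was not settled here if the sort used the Id2 reporter, Flt3 or Kit. Where it did, their levels would follow from the gate and check nothing, and the same holds for their changes below. The populations are called by their labels below.

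Of 11583 genes tested, 746 rose and 488 fell from KO ALP to KO preproNK at an adjusted p under 0.05 (limma on the 4 KO arrays, Benjamini-Hochberg adjustment), which is 6.44% and 4.21% of the genes tested and 10.7% together. The sign was the same in both replicate pairs for 1233 of the 1234, the exception being Fads2, a fatty acid desaturase, with differences of 0.11 and -3.17 (adjusted p = 0.0493). Rises reached higher than falls: 54 genes rose and 10 fell by at least 4 on the log2 scale, which is 16-fold. The median size was 1.73 among risen and 1.59 among fallen genes, with standard errors between 0.359 and 0.57. Of the risen genes, 148 lay below the array median on both KO ALP arrays, and 509 were above it on both. Of the fallen genes, 87 lay below the median on both KO preproNK arrays, and 340 were above it on both.

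With only 2 arrays a group these counts depend on how the spread was estimated. When it was shared over all 8 arrays, 141 genes rose (1.22%) and 62 fell (0.535%), all among those above, with a median standard error over tested genes of 0.473 in place of 0.369. With the replicate number as a block in the 4 arrays, 937 rose (8.09%) and 657 fell (5.67%), and these held every one of the 1234. The differences were the same in that fit and its residual degrees of freedom fewer, so this is no separate check of them. Leaving out 1 array also moved the counts: 757 rose and 196 fell without KO ALP replicate 1, 418 and 455 without KO ALP replicate 2, 355 and 169 without KO preproNK replicate 1, and 444 and 263 without KO preproNK replicate 2. A rule of size alone, at least 1 on the log2 scale the same way in both pairs, took 630 rising genes (5.44%) and 349 falling genes (3.01%), of which 611 and 334 were also called. The labels do not say that samples came from separate mice. Xist differed between the replicates of both KO groups, so those replicates do not share all their mice. The p-values reflect only the scatter among these samples, some of which may be technical. In that scatter sex-linked expression and processing date vary together. In bulk RNA, fewer cells of a type and less RNA per cell cannot be told apart.

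**Figure D1:**
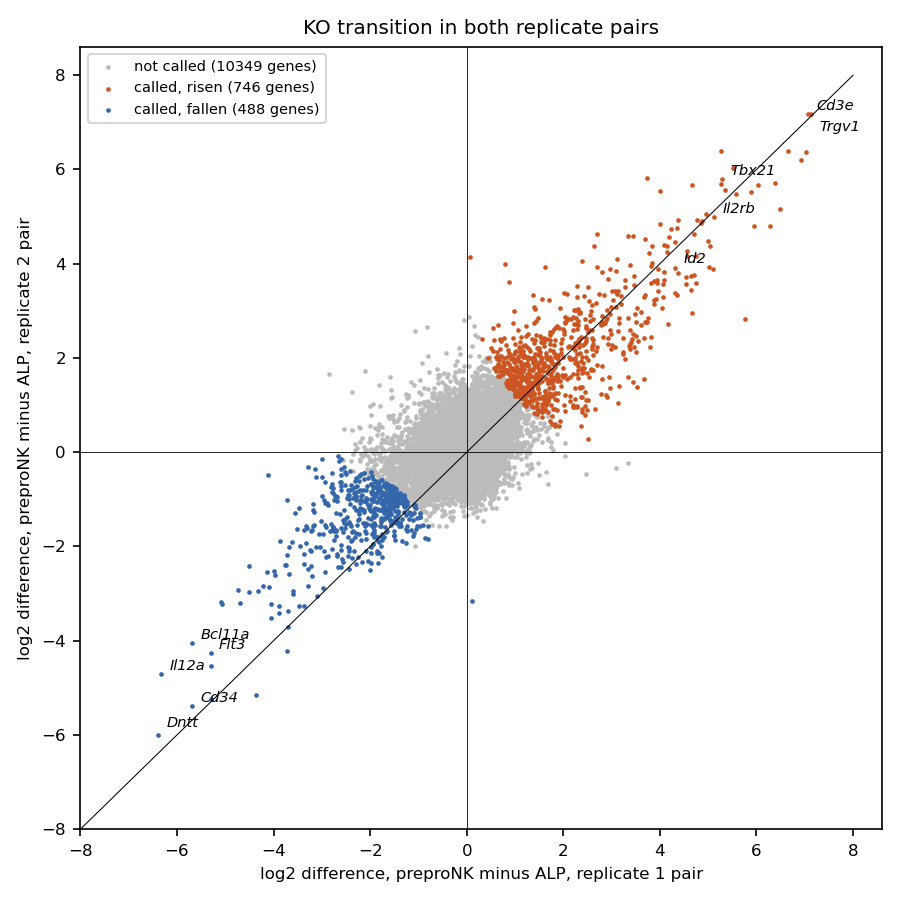
Each point is 1 tested gene, placed by its log2 difference (KO preproNK minus KO ALP) in the pair of replicate 1 on the horizontal axis and of replicate 2 on the vertical axis, with the line of equal values drawn. The 746 genes called as risen lie at the upper right, the called falls at the lower left with the exception of Fads2, and Dntt and Cd3e sit near the ends of the cloud.

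The largest rises included genes of the T cell receptor complex and factors of innate lymphoid cells. Trgv1, a variable segment of the T cell receptor gamma chain, read 3.0139 and 3.0003 in KO ALP and 10.15 and 10.18 in KO preproNK, a difference of 7.15 (SE 0.36, adjusted p = 9.49e-13). The dim values lie below the array median, so the change was taken as at least 73-fold, with values below the median set to it, and folds marked "at least" below follow the same rule. Cd3e, the epsilon chain of the CD3 complex that carries the T cell receptor signal, went from 2.93 and 3.27 to 9.99 and 10.45 (at least 76.1-fold). Both genes were near background on both ALP arrays and among the bright genes on both preproNK arrays, with no overlap. Genes named for large called differences are largely bound to separate in this way, so lack of overlap is no further support, here or below.

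Ikzf3, which encodes Aiolos, an Ikaros family regulator of lymphocyte maturation, rose from 3.98 and 4.16 to 10.64 and 10.55, a difference of 6.53 (SE 0.36) or 92.1-fold. The other rises among the 12 largest were Cd3g, the scavenger receptor family gene 5830411N06Rik, the chemokine receptor Ccr6, the surface protein Thy1, the tetraspanning protein Ms4a4b, the lymphocyte GTPases Gimap3 and Gimap4, the nuclear receptor Rora and the T-box factor Tbx21, with differences from 6.69 down to 5.55. Of these 12, all but Ms4a4b and Rora were also called when the spread was shared over 8 arrays. Those exceptions had adjusted p = 0.114 and 0.11 there.

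The largest falls included genes known from early progenitors. Dntt, the terminal transferase that adds bases at antigen receptor joints, read 10.86 and 10.48 in KO ALP and 4.47 and 4.48 in KO preproNK, a difference of -6.20 (SE 0.36, adjusted p = 5.74e-12) or 73.4-fold. Cd34, a surface sialomucin of stem and progenitor cells, fell from 8.43 and 8.40 to 2.73 and 3.01 (at least 21.5-fold). Il12a, a subunit of interleukin 12, fell from 9.70 and 9.03 to 3.37 and 4.33 (at least 37-fold). The groups did not overlap for any of these. The remaining falls among the 12 largest were Sh2d5, the adhesion receptor Adgrg1, the transcription factors Bcl11a, Tcf4 and Sox4, the receptor kinase Flt3, 2610307P16Rik, Marcksl1 and Bex6, with differences from -5.27 to -3.94. Tcf4 and Bex6 were not called with 8 arrays (adjusted p = 0.0604 and 0.108).

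**Figure D2:**
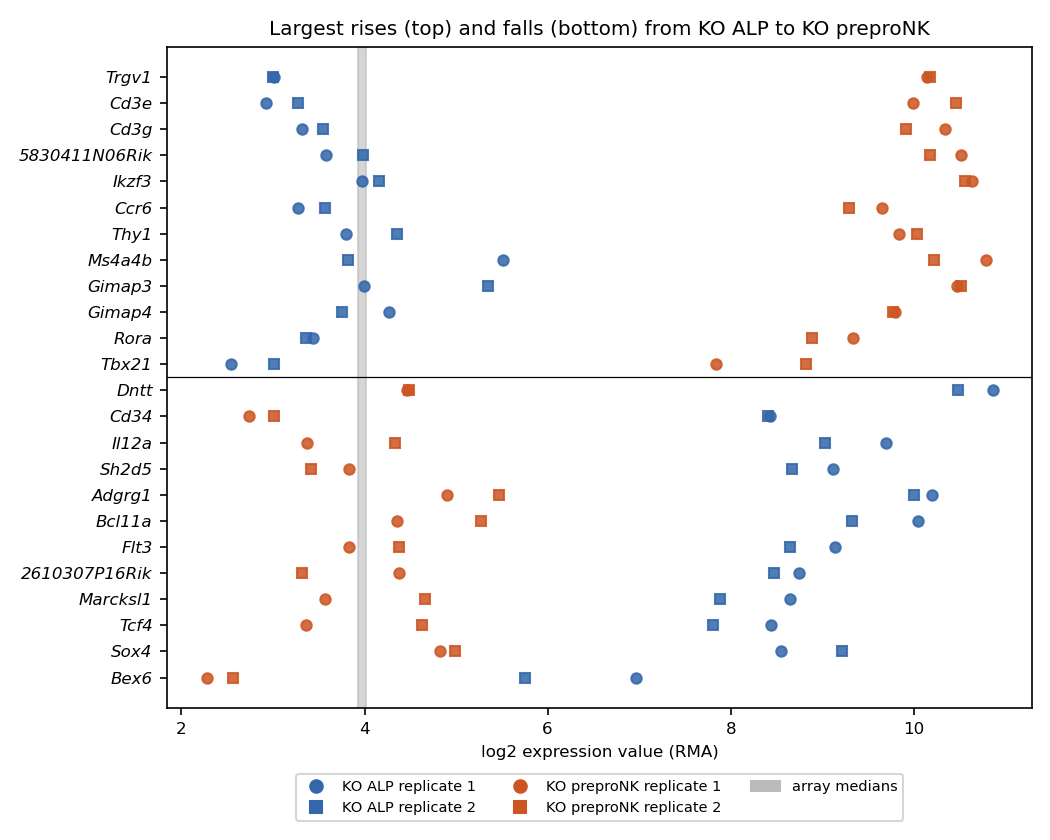
Log2 expression value (horizontal axis) on each of the 4 KO arrays for the 12 genes with the largest called rises (top) and falls (bottom). Circles are replicate 1, squares replicate 2, blue is KO ALP, orange is KO preproNK, and the grey band spans the array medians over all probe sets. For every gene shown the 2 groups are separated by a gap wider than the distance between replicates. The genes were chosen for large called differences, so this gap is no further support.

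Promoter sequences of 4 of these genes are shown because they stand at both ends of the comparison and because Cd3g and Cd3d, which rose together, are neighbours on the same chromosome, transcribed in opposite directions. Each is the 250 bases before the gene's start in RefSeq (mouse build GRCm38.p6), read 5′ to 3′ on the gene's strand, and capitals mark the E-box letters CACCTG on either strand, a sequence that E proteins can bind. The windows are chr9:44980432-44980681 (minus strand) for Cd3g, chr9:44981536-44981785 (plus strand) for Cd3d, chr11:97115332-97115581 (minus strand) for Tbx21 and chr19:41029025-41029274 (plus strand) for Dntt.
Cd3g: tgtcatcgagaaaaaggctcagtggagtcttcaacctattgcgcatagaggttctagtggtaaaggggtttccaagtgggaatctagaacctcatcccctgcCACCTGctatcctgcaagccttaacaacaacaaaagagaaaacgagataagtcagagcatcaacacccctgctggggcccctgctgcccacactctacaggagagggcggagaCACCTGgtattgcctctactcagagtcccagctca
Cd3d: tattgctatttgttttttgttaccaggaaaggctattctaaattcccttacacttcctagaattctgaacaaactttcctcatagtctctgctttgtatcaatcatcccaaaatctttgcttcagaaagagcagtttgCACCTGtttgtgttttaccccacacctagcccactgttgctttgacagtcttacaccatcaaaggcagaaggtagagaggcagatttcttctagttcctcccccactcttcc
Tbx21: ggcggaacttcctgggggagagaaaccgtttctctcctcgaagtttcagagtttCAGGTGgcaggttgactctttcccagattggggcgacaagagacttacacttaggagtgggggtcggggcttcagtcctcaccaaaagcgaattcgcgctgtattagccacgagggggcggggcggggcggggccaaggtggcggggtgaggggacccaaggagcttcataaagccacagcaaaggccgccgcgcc
Dntt: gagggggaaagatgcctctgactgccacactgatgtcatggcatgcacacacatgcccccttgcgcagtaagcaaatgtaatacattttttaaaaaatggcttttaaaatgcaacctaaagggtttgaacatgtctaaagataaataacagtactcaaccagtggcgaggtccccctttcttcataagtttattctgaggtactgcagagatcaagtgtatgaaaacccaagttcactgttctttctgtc
CACCTG begins 148 and 35 bases before the start in Cd3g, 112 before it in Cd3d and, on the other strand, 196 before it in Tbx21. No match was found in the Dntt window. Over 250 bases before to 50 after the start, on both strands, CACCTG was in 19.1% of 11791 promoters of tested genes, 21.4% of the 803 promoters of risen genes and 19.6% of the 546 promoters of fallen genes. Motifs known for other factors of this lineage were searched in the same windows. The ETS letters CCGGAAGT were in 7.39% of all promoters, 2.49% of risen and 2.38% of fallen, the RUNX letters TGTGGTT in 3.94%, 5.35% and 3.66%, the E-box CAGCTG in 15.8%, 20.2% and 15.2%, and the T-box letters TCACACCT in 1.03%, 1.25% and 0.916%. The NFIL3 letters TTACGTAA were in 0.178%, 0.125% and 0.183%, and TTATGTAA in 0.5%, 0.249% and 0.916%. These matches describe the sequence and are not binding sites.

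In the list of transcription factors known from NK cell development, most tested members rose from KO ALP to KO preproNK. Of 14 tested (18 listed), 10 rose and 1 fell (71.4% and 7.14%), with a median difference of 2.75 against -0.00415 over all tested genes. Rora, Bcl11b and Gata3 are among the 10 rises and are also factors of T cells or other innate lymphoid cells. The count is therefore not of NK factors alone, and the same holds for the median of the list. The counts of this and every list below stand beside 6.44% risen and 4.21% fallen of all tested genes. Tbx21, which encodes T-bet, a factor of NK cell maturation, read 2.54 and 3.01 in KO ALP and 7.84 and 8.82 in KO preproNK, a difference of 5.55 (SE 0.39, adjusted p = 1.36e-10). Id2, the inhibitor of E proteins whose activity the reporter follows, rose from 6.16 and 5.94 to 10.48 and 9.86, which is 17.4-fold. It was already above the array medians in KO ALP. Eomes, the T-box factor paired with T-bet in mature NK cells, read 3.77 and 4.16 before and 4.38 and 4.46 after, and its difference of 0.45 (SE 0.36) did not pass the test (adjusted p = 0.643).

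Bcl11b, a factor of T cell commitment, rose by 4.23 and the promyelocytic zinc finger gene Zbtb16, a mark of innate-like lymphocyte precursors, by 2.97, from 3.85 and 4.25 to 7.29 and 6.75. Gata3, a factor of T cells and type 2 innate lymphoid cells, read 3.04 and 3.58 and then 6.27 and 5.67 (2.66, SE 0.38, adjusted p = 1.25e-05). Ets1, which acts early in NK cells, was expressed in KO ALP at 7.15 and 6.36 and rose to 9.19 and 9.24 (5.49-fold). Klf2 rose by 2.85 and Stat4, a mediator of interleukin 12 signals, by 1.59. Zeb2, which acts late in NK cell maturation, went the other way, from 7.28 and 7.76 to 4.57 and 6.09 (-2.19, adjusted p = 0.000672). Prdm1 and Runx3 did not pass the test, with differences of 0.97 and 0.62. With 8 arrays, 5 of the 10 rises were called, and the fall of Zeb2 was not (adjusted p = 0.201). That fall was also lost without KO ALP replicate 1, KO ALP replicate 2 or KO preproNK replicate 1.

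Cytokine receptors rose in part. Of 14 tested (18 listed) 6 rose and none fell at the threshold, with a median of 0.84. Il2rb, the beta chain shared by the receptors for interleukins 2 and 15, read 3.78 and 3.91 in KO ALP and 8.91 and 8.90 in KO preproNK (5.06, SE 0.36, at least 30.5-fold). Il18r1, the ligand-binding chain of the interleukin 18 receptor, rose from 5.28 and 4.24 to 9.66 and 9.17. Il2ra, the alpha chain of the interleukin 2 receptor, read 3.28 and 4.94 before and 9.03 and 7.77 after, and its pairs differed by 5.76 and 2.83. Ifngr1, Il17rb and Il12rb1 rose by 2.88, 2.45 and 2.38. Il15ra, Il12rb2, Il18rap, Jak3, Il21r and Il4ra did not pass the test, with differences between -0.33 and 0.87. The same count of 6 rises was found on leaving out each KO array in turn, and 2 of the 6 were called with 8 arrays.

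Receptors of NK cells moved unevenly. Of 14 tested (26 listed, 6 below the filter) 6 rose and 1 fell, with a median of 1.10. Klrc1, an NKG2 chain that pairs with CD94, read 2.58 and 2.64 in KO ALP and 6.73 and 7.02 in KO preproNK (4.26, SE 0.36, adjusted p = 2.79e-09, at least 7.48-fold). Klrk1, which encodes the activating receptor NKG2D, rose from 3.15 and 3.51 to 7.79 and 7.26 (at least 11.7-fold), and its signalling adaptor Hcst by 2.41, from 6.03 and 5.82 to 8.71 and 7.97. For these genes every preproNK value was above every ALP value, which their choice as called rises largely fixes. Klrg1, a receptor of mature NK cells and of type 2 innate lymphoid cells, rose by 2.67, Klrd1, which encodes CD94, by 1.55 and Klrb1f by 1.18.

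Klrb1c, the NK1.1 antigen, read 5.21 and 5.44 and then 5.96 and 6.35, a difference of 0.84 that did not pass the test (adjusted p = 0.185). Ncr1, which encodes the NK cell receptor NKp46, was at 2.72 to 3.28 on the 4 KO arrays, below the array medians, and was not tested. Cd244a, a receptor of the SLAM family, fell from 6.86 and 5.78 to 4.29 and 4.34 (4.01-fold, adjusted p = 0.000702). The adaptors Tyrobp and Fcer1g differed in sign between the pairs. Tyrobp had differences of -1.53 and 0.78 in the pairs and Fcer1g of -0.73 and 1.17. The count of rises in this group was 4 without KO ALP replicate 2, KO preproNK replicate 1 or KO preproNK replicate 2, and 2 with 8 arrays (Klrc1 and Klrk1). Probe sets of the Klr families can share targets between paralogs.

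Of effector genes, 7 of 16 tested (21 listed, 5 below the filter) rose and none fell, with a median of 0.93. Ccl5, a chemokine of activated lymphocytes, read 3.71 and 3.93 in KO ALP and 8.02 and 8.38 in KO preproNK (4.38, SE 0.36, at least 18.8-fold). Ctsw, a cathepsin of cytotoxic lymphocytes, rose from 7.61 and 6.04 to 9.90 and 9.57. Ifng rose from 2.56 and 2.73 to 4.43 and 5.40, Gzmb from 3.45 and 3.98 to 5.70 and 5.86 and Gzma from 2.93 and 2.96 to 5.81 and 4.17. The granzymes and interferon gamma thus came from near background to values above the array medians. Tnf rose by 1.64 and Nkg7, a granule membrane protein, by 1.54. Prf1, which encodes perforin, was at 7.97 and 7.46 and then 8.61 and 8.36, a difference of 0.77 that did not pass the test (adjusted p = 0.247). Without KO preproNK replicate 1 the count of rises was 4, and with 8 arrays it was 2 (Ccl5 and Gzmb).

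Genes of migration and adhesion rose in 9 of 16 tested (23 listed), with none fallen and a median of 1.89. These shares stand beside 6.44% and 4.21% of all tested genes, and 5 of the 9 rises were called with 8 arrays. Among the risen chemokine receptors Ccr6 read 3.27 and 3.57 before and 9.66 and 9.29 after, Cxcr3 4.82 and 3.91 before and 10.09 and 9.59 after, and Cxcr6 2.83 and 2.76 before and 7.38 and 6.34 after. These were rises of at least 45.3-fold, 43-fold and 7.39-fold. S1pr1, the receptor that lets lymphocytes leave tissues toward sphingosine 1-phosphate, rose from 3.63 and 3.69 to 8.35 and 8.33, with differences of 4.72 and 4.64 in the pairs. Of the integrins, which hold lymphocytes in tissues, Itgb7 rose by 3.08, Itgb2 by 2.62, Itgal by 1.92 and Itgae by 1.85. Itga2, which encodes the NK cell antigen recognised as DX5, read 3.17 and 3.77 and then 4.63 and 4.23 and did not pass the test (0.96, adjusted p = 0.116). Ccr9 and Cx3cr1, receptors that guide cells to the gut and along vessels, did not pass the test, with differences of 1.04 and -0.72. Cd44 and Itga4 differed by 0.20 and -0.33.

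The T cell receptor complex and its signalling chain was the group with most rises. Of 23 tested (28 listed) 20 rose and none fell, with a median of 3.12, and in the pairs 3.36 and 2.84. Cd3g rose from 3.31 and 3.55 to 10.34 and 9.91, Cd3d from 4.46 and 4.49 to 9.51 and 8.87 and the zeta chain Cd247 from 6.25 and 5.54 to 9.09 and 8.87. All components of CD3 measured here were thus higher on both KO preproNK arrays than on both KO ALP arrays. Cd2, an adhesion receptor of T and NK cells, rose by 5.54, the costimulators Icos and Cd28 by 4.01 and 3.25, and Cd5, a damper of receptor signals, by 3.43.

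Inside the cell, Zap70, the kinase recruited by phosphorylated CD3, rose from 3.88 and 4.13 to 7.24 and 6.38, the scaffold Lat by 2.46 and Themis by 3.12. Lef1, a factor of the TCF family, rose from 2.62 and 3.17 to 7.73 and 7.06. Cd4 rose by 1.95 from 5.46 and 5.71, whereas Cd8a and Cd8b1 differed by 0.11 and 0.46 and did not pass the test. The 20 rises became 18 to 20 on leaving out single KO arrays and 13 with 8 arrays.

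A smaller list, of genes known from interleukin 17 producing gamma delta T cells, had 6 rises among 7 tested (13 listed) and a median of 3.81. Sox13, a factor of that lineage, rose from 3.94 and 3.93 to 7.9994 and 7.49 (at least 13.6-fold), and Blk, a Src family kinase, from 5.52 and 5.64 to 10.51 and 10.13 (26.7-fold). Cd163l1, a scavenger receptor of gamma delta T cells, rose by 3.81, Maf by 2.95 and Il17re, a receptor chain for interleukin 17 family cytokines, by 1.37. Il17a itself was at 2.58 to 2.89 on the 4 KO arrays, below the array medians. The mean level of the 7 tested genes was 4.62 and 4.88 in KO ALP and 8.23 and 7.82 in KO preproNK.

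Genes known from type 2 innate lymphoid cells rose in 9 of 11 tested (15 listed), with a median of 2.66. Rora, a factor that these cells need, read 3.44 and 3.36 before and 9.33 and 8.89 after (5.71, SE 0.36, at least 35.2-fold). Ptgdr2, the prostaglandin D receptor, rose by 3.04, Il17rb, a chain of the interleukin 25 receptor, by 2.45 from 6.44 and 6.26, Bmp7 by 2.28 and Arg1 by 1.42. Il9r and Hpgds did not pass the test, with differences of 0.64 and 0.21. The cytokines Il5 and Il13 were below the array medians on all 4 KO arrays. The mean level over the 11 genes went from 4.08 and 4.52 to 7.14 and 6.81. With 8 arrays 2 of the 9 were called, Icos and Ptgdr2. The other 7 had adjusted p from 0.08 to 0.596.

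The T cell, gamma delta and type 2 lists overlap with the NK lists in part, since Rora, Gata3, Klrg1, Il17rb, Il2ra, Ccr6 and Icos stand in 2 of them. The 23 T cell receptor genes had mean levels of 4.39 and 4.53 in KO ALP and 7.90 and 7.55 in KO preproNK. The 14 tested genes of the NK factor list, Rora, Bcl11b and Gata3 among them, had 4.88 and 4.9996 and then 7.73 and 7.65. The part that T cells, gamma delta T cells or type 2 innate lymphoid cells within the sort have in these rises was not tested.

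**Figure D3:**
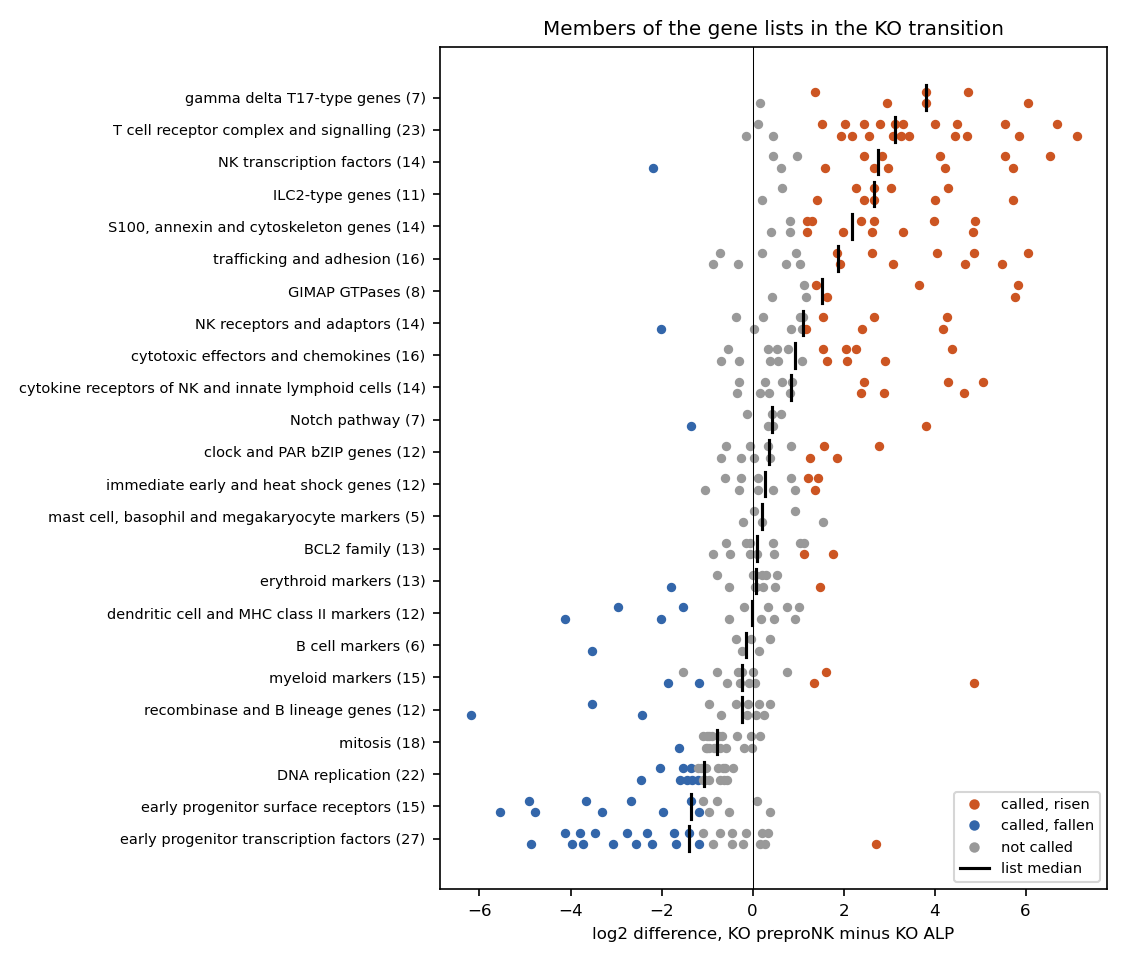
Log2 difference from KO ALP to KO preproNK (horizontal axis) of every tested member of each gene list, with the number tested in parentheses, orange for called rises, blue for called falls, grey for genes not called and a black bar for the list median. The medians of the T cell, gamma delta and NK factor lists are 3.12, 3.81 and 2.75, and the early progenitor lists reach down to -5.54.

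Receptors of early progenitors fell. Of 15 tested (21 listed) 9 fell and none rose, with a median of -1.36, set against 4.21% of all tested genes falling. Flt3, the receptor tyrosine kinase by which ALP are recognised, read 9.14 and 8.64 in KO ALP and 3.84 and 4.38 in KO preproNK (-4.79, SE 0.37, adjusted p = 7.75e-10, at least 26.3-fold). Adgrg1, an adhesion receptor of stem cells, fell from 10.19 and 10.0015 to 4.90 and 5.47 (30.1-fold), Adgrl4 by 3.66 and Cd93 by 3.32, from 9.01 and 9.15 to 5.64 and 5.88. Kit, the stem cell factor receptor, fell from 5.90 and 4.59 to 3.27 and 3.28 (-1.97, adjusted p = 0.00122). All of these had both preproNK values below both ALP values, which their choice as called falls largely fixes.

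Cd33 fell by 2.66, the granulocyte colony-stimulating factor receptor Csf3r by 1.19 and Notch1 by 1.36. Cd27, a costimulatory receptor of early lymphoid cells, was at 9.02 and 8.39 and then 7.54 and 7.69 (-1.09, adjusted p = 0.0607), and Csf1r and Csf2rb differed by -0.78 and -0.96 without passing the test. With 8 arrays the falls of Cd34, Adgrg1, Flt3 and Adgrl4 were called. Leaving out single KO arrays gave 7 to 9 falls.

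Transcription factors of stem and early progenitor cells fell in 15 of 27 tested (29 listed) and 1 rose, with a median of -1.40. Bcl11a, needed for the earliest lymphoid progenitors, went from 10.05 and 9.32 to 4.36 and 5.28 (-4.87, SE 0.40, 29.2-fold). Sox4 fell from 8.54 and 9.22 to 4.83 and 4.99 (15.7-fold) and Meis1, a partner of Hox proteins, from 7.14 and 6.56 to 3.09 and 3.05 (at least 7.25-fold). Hoxa9 fell by 3.74, from 8.80 and 8.17 to 4.30 and 5.21. These are genes of the stem cell programme, and each fell in both pairs, as did nearly all called falls.

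Lmo2 and Lyl1, which act together in blood stem cells, fell by 3.47 and 3.07, Hhex by 2.76, Mef2c by 2.57, Erg by 2.32 and Myb by 2.22. Spi1, which encodes PU.1, fell from 7.56 and 7.30 to 5.08 and 6.33 (-1.72, adjusted p = 0.00436). Tcf4, an E protein of plasmacytoid dendritic cells and early B cells, fell from 8.44 and 7.81 to 3.36 and 4.63. Its relative Tcf3, from which the E2A proteins come, stood at 9.29 and 9.39 and then 8.97 and 8.81, a difference of -0.46 (SE 0.36, adjusted p = 0.635). Ikzf1, Runx1, Gata2 and Satb1 did not pass the test either, with differences from -0.86 to 0.28.

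The single rise in this list was Ikzf2, which encodes Helios, from 4.86 and 5.29 to 7.48 and 8.11 (6.59-fold, adjusted p = 8.16e-06). Of the 15 falls 7 were called with 8 arrays, and leaving out single KO arrays gave 11 to 13 falls in the list.

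Genes of antigen receptor rearrangement and the B lineage gave fewer changes. Of 12 tested (18 listed) 3 fell and none rose, with a median of -0.24. Besides Dntt these were Rag2, from 5.29 and 4.91 to 2.70 and 2.65 (at least 2.15-fold), and the B cell adaptor Blnk, from 6.84 and 6.89 to 3.13 and 3.52 (-3.54, at least 7.32-fold). All 3 were called in each fit that left out 1 array and with 8 arrays. Rag1 read 4.30 and 3.98 and then 2.94 and 3.42, near or below the array medians, and its difference of -0.96 did not pass the test (adjusted p = 0.112). Cd79a, Cd79b, Pax5, Foxo1 and the Vpreb genes differed by -0.70 to 0.37 and did not pass the test. Ebf1 was at 3.02 to 3.54 on the 4 KO arrays, below the array medians.

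In the Notch pathway 1 of 7 tested genes rose and 1 fell (14.3% each, beside 6.44% and 4.21% of all tested genes). Notch1 fell from 9.94 and 9.44 to 8.41 and 8.26 (2.56-fold, adjusted p = 0.0142), while Dtx1, a ubiquitin ligase known as a Notch target in lymphocytes, rose from 4.41 and 4.65 to 8.36 and 8.31 (13.9-fold, adjusted p = 2.05e-08). The other 5 of 7 tested genes did not pass the test, among them Notch2 and Rbpj at 0.62 and 0.45. Only 7 of 13 listed genes could be tested, and 5 lay below the filter. With 8 arrays the rise of Dtx1 was called and the fall of Notch1 was not. The fall of Notch1 was called without KO ALP replicate 2 but not without any of the other 3 KO arrays. The rise of Dtx1 was called in each.

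In the BCL2 family of survival genes 2 of 13 tested rose, Bcl2a1a by 1.76 and Bik by 1.13, which is 15.4% beside 6.44% of all tested genes, and the median was 0.09. The call of Bik was lost on leaving out each KO array, and neither was called with 8 arrays. Bcl2 itself read 9.61 and 9.14 and then 9.05 and 8.70 (-0.50, adjusted p = 0.583), and Mcl1, on which NK cells depend, 7.17 and 6.72 and then 7.96 and 8.03 (1.05, adjusted p = 0.0696). Probe sets of Bcl2a1a can also read its close copies.

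Clock and PAR leucine zipper genes were listed because Nfil3 competes with PAR factors for the same DNA sequence. Of 12 tested (16 listed) 4 rose and none fell. Arntl, a core activator of the clock, went from 3.06 and 3.16 to 6.02 and 5.76 (2.78, at least 3.78-fold), Bhlhe40 from 2.60 and 2.78 to 5.05 and 4.06, Nr1d2 by 1.58 and Clock by 1.25. The PAR factors did not pass the test: Dbp differed by 0.85 (adjusted p = 0.192), Hlf by 0.33 and Tef by 0.02. Per1, Per2, Per3 and Cry2 differed by -0.69 to 0.39. Without KO ALP replicate 1, KO ALP replicate 2 or KO preproNK replicate 1 the count was 1, and Arntl was called in each of these and with 8 arrays.

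Families outside these programmes also rose. All 8 GIMAP genes, GTPases of lymphocyte survival, were tested, and 5 rose, with a median of 1.52. Gimap3 went from 3.99 and 5.35 to 10.47 and 10.52 and Gimap4 from 4.27 and 3.75 to 9.79 and 9.78, whereas Gimap6, Gimap1 and Gimap9 were at 5.68 or above in KO ALP and differed by 0.42 to 1.18. Without KO preproNK replicate 1 the count was 3, and with 8 arrays 2.

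Of 14 tested S100, annexin and cytoskeleton genes 11 rose, with a median of 2.19. S100a6 read 4.02 and 3.35 before and 8.89 and 8.25 after (4.89, at least 23.5-fold), S100a4 3.97 and 3.15 before and 8.73 and 8.08 after, and Ahnak, a scaffold protein, 6.32 and 5.39 before and 10.09 and 9.62 after (16-fold). The galectin Lgals3 rose by 3.30 and Anxa2 by 2.63. The list median was 1.79 for replicate 1 and 2.59 for replicate 2, whose ALP array had the narrower spread of values. The count was 7 without KO ALP replicate 2 and without KO preproNK replicate 1, and 5 with 8 arrays.

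Most DNA replication and mitotic genes read lower in KO preproNK on average, and few mitotic genes passed the test. Of 22 replication genes tested 8 fell, all 22 had a negative difference, and the median was -1.08, with -1.73 for the pair of replicate 1 and -0.43 for that of replicate 2. Gins1, a subunit of the replicative helicase, fell from 7.67 and 6.96 to 4.45 and 5.29 (5.43-fold) and Pole, a DNA polymerase subunit, from 6.96 and 6.98 to 4.77 and 5.12 (4.06-fold). Mcm3, Mcm6, Mcm7, Mcm10, Prim1 and Ung fell by 1.20 to 1.60, while Pcna, Tyms and Mcm4 differed by -0.60 to -0.44 without passing the test. None of the 8 was called with 8 arrays, and only 2 were called without KO ALP replicate 1 or without KO preproNK replicate 1.

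Of 18 mitotic genes 1 fell, Tpx2 (-1.61, adjusted p = 0.0066), beside 4.21% of all tested genes, and this call was lost without KO ALP replicate 1, KO ALP replicate 2 or KO preproNK replicate 1 and with 8 arrays. Without KO preproNK replicate 2 the count of falls was 4. The mean difference over the pairs was negative for 17 of the 18, with a median of -0.79, which was -1.62 for replicate 1 and 0.21 for replicate 2. Mki67, the proliferation antigen, read 8.91 and 9.21 in KO ALP and 7.35 and 9.06 in KO preproNK, and Top2a 7.14 and 6.59 and then 4.88 and 6.68. KO preproNK replicate 1 was thus the low array, and replicate 2 lay within or near the ALP values. The mean level of the list was 7.37 and 6.73 in KO ALP and 5.72 and 6.98 in KO preproNK.

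Markers of other blood cells were read on the same arrays. Of 15 myeloid genes tested (17 listed) 3 rose and 2 fell (20% and 13.3%, beside 6.44% and 4.21% of all tested genes), and the mean level was 5.54 to 5.83 on the 4 KO arrays. With 8 arrays none of the 5 was called. The rises were 1 without either KO ALP array and 2 without either KO preproNK array, and the falls were 0 without either KO ALP array, 2 without KO preproNK replicate 1 and 1 without KO preproNK replicate 2. Ccr2, found on monocytes and also on lymphocyte progenitors, rose from 3.94 and 3.55 to 8.79 and 8.42. Elane, a neutrophil granule protease, read 4.61 and 4.29 and then 6.9992 and 5.14, and Lyz2, a lysozyme of monocytes and neutrophils, 7.88 and 7.07 and then 8.20 and 9.47. Mpo, the granule peroxidase of myeloid progenitors, was at 10.46 and 9.16 in KO ALP and 9.40 and 7.16 in KO preproNK (-1.53, adjusted p = 0.0569). S100a9 was at 3.71 to 4.43, and S100a8 below the array medians on all 4.

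Dendritic cell and MHC class II genes divided by replicate. Of 12 tested (17 listed) 4 fell, Tcf4, Irf8, H2-DMa and Itgax, which is 33.3% beside 4.21% of all tested genes, and none rose. There were 2 falls without KO ALP replicate 1 or KO preproNK replicate 1, and 1, Irf8, with 8 arrays. Irf8, a factor of dendritic cells and monocytes that early lymphoid progenitors also express, fell from 9.65 and 9.69 to 5.92 and 7.49 (7.76-fold). The antigen-presenting genes Cd74, H2-Aa and H2-Eb1 read 5.49, 6.26 and 5.63 on KO preproNK replicate 1 and 8.10, 8.21 and 8.43 on KO preproNK replicate 2, with 5.53 to 6.56 on the KO ALP arrays. Only KO preproNK replicate 2 was high. It was also the high array for Cybb, a subunit of the phagocyte oxidase, at 7.83 against 3.68 to 5.18, and for fibronectin, Fn1, at 8.37 against 4.38 to 6.02, both chosen after their values were seen. Without KO preproNK replicate 1, 3 genes of the list were called as risen, Cd74, H2-Aa and H2-Eb1.

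Among basophil and mast cell genes, Mcpt8 and Cpa3 were higher on the other KO preproNK array, replicate 1. Gata2 differed by 0.22 between the groups, and Ms4a2 and Fcer1a lay below the array medians on all KO arrays. Mcpt8, a basophil protease, read 5.12 and 4.61 in KO ALP and 8.46 and 4.38 in KO preproNK, and Cpa3 2.54 and 2.77 and then 4.29 and 2.89, with no call among the 5 genes tested. Of B cell markers 1 of 6 tested changed, Blnk, and Ms4a1, which encodes CD20, was at 2.71 to 2.83, below the array medians. Of 13 erythroid markers Hba-a1 rose by 1.48 from 10.04 and 8.27, and the transferrin receptor Tfrc fell by 1.79, each 7.69% of the list beside 6.44% and 4.21% of all tested genes. The first call was lost without KO ALP replicate 2 or KO preproNK replicate 1, the second without KO ALP replicate 1 or KO preproNK replicate 1, and both with 8 arrays. Alas2 and Slc4a1 were at 4.88 to 5.50 throughout. Of 12 immediate early and heat shock genes, read as a sign of handling, 3 rose, Btg2, Jund and Dusp1, by 1.44, 1.38 and 1.22 (25% beside 6.44% of all tested genes), and the mean level was 5.69 to 6.06. That count was 0 without either KO ALP array and with 8 arrays, and 1 without either KO preproNK array. The part of other cells or of handling in the results above was not tested.

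The same step in WT mice was set beside the KO step. The genotypes have separate arrays in both populations. Of the 746 genes that rose in KO, 720 were also higher in WT preproNK than WT ALP for replicate 1 and 497 for replicate 2, with median differences of 1.19 and 0.35 beside 1.70 and 1.91 in the KO pairs. Of the 488 that fell, 483 and 425 were lower in the WT pairs, with medians of -1.57 and -0.96 beside -1.97 and -1.25. The WT replicate 2 pair contains the array that stood apart. The WT step alone gave 4 rises and 7 falls at the threshold with 8 arrays.

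For progenitor genes the WT values ran as follows. Dntt went from 10.87 and 10.17 to 4.76 and 4.65 in WT, Flt3 from 9.14 and 8.10 to 3.79 and 4.47, and Cd34 from 8.59 and 7.17 to 2.97 and 2.89. These stand beside the KO values given above. Among lymphoid genes Tbx21 reached 5.67 and 5.42 in WT preproNK against 7.84 and 8.82 in KO preproNK, Il2rb 6.77 and 5.76 against 8.91 and 8.90, and Cd3e 8.48 and 6.59 against 9.99 and 10.45. Arg1, of the type 2 list, was higher in WT, at 8.81 and 6.74 in WT preproNK and 5.07 and 5.87 in KO preproNK. These genes do not stand for their lists. The mean level of the type 2 list was 8.22 and 5.91 in WT preproNK and 7.14 and 6.81 in KO preproNK, that of the NK factors 7.56 and 5.90 against 7.73 and 7.65, and that of the GIMAP genes 8.44 and 6.05 against 8.43 and 8.32. The low value of each WT pair is from the array that stood apart.

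The test of the difference itself, the interaction of genotype and step over 8 arrays, called no gene (limma, 0 of 11583, 0%). At an unadjusted p under 0.05 there were 183 genes, 168 of them with the higher difference in KO. With the replicate block there were 357 and again 0 called. Both counts are smaller shares of the 11583 than the 0.05 that this threshold lets through if no gene differs. The WT preproNK array that stood apart enters every interaction, so no KO tendency is read from the direction. The 5 smallest p with a higher KO difference belonged to Cd55, 5830411N06Rik, Klrc1, Sit1 and Ehd3. Cd55, which protects cells from complement, read 6.41 and 5.83 in KO preproNK and 2.23 to 2.99 on the other 6 arrays (interaction 3.52, SE 0.55, adjusted p = 1.00, and 0.526 with the block). The 5 with a lower KO difference were Lrrc52, Asph, Pparg, Gm15527 and Ccdc184. Pparg, a nuclear receptor of lipid metabolism that type 2 innate lymphoid cells also use, read 7.88 and 7.22 in WT preproNK and 4.95 and 5.43 in KO preproNK, from 3.86 to 5.04 in the ALP arrays (interaction -2.27, SE 0.71, adjusted p = 1.00). None of these differences passed the test, so the KO and WT steps were not shown to differ for any gene.

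**Figure D4:**
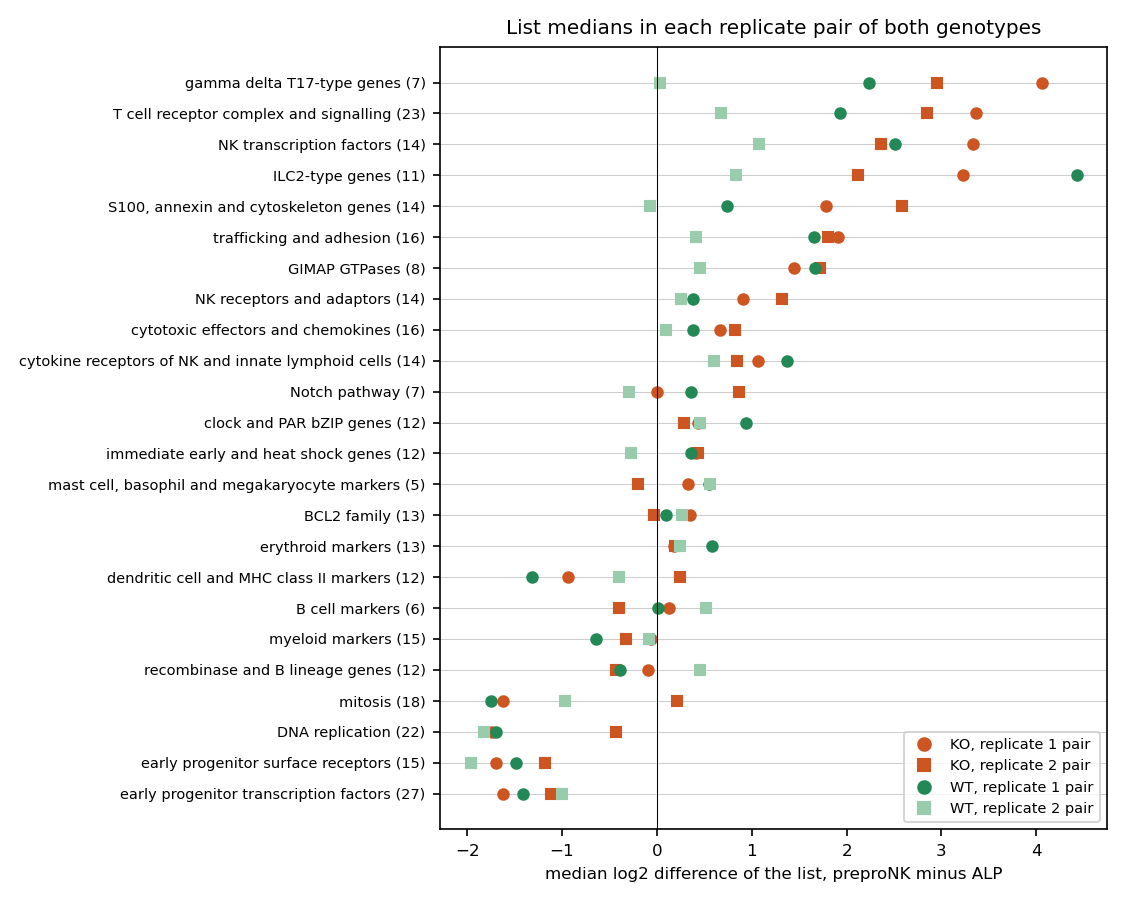
Median log2 difference of each list from ALP to preproNK (horizontal axis) in each replicate pair of both genotypes, with circles for replicate 1, squares for replicate 2, orange for KO and green for WT. Both KO pairs are above 0 in the T cell, gamma delta and NK factor lists and below 0 in both early progenitor lists, the mitosis and dendritic cell lists have their KO pairs on opposite sides, and the WT replicate 2 square is nearest to 0 in the T cell and gamma delta lists.

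Other probe sets of the same genes were read as a check of the probe sets used. They read the same RNA on the same arrays and belong to genes already called, so they check nothing about the samples. Among the listed genes called, 82 had at least 1 more probe set with a single symbol, 136 in all, and 135 of these had the same sign as the one used, the exception being a dim one of Rora. Of the 109 above the array median on at least 2 KO arrays, all 109 had the same sign and 91 a difference of at least 1 the same way. Il2rb had further differences of 5.58 and 3.84, Sox4 of -4.19 to -3.52, and Zbtb16 of 4.58 beside 2.97. The probe sets of Cd247 disagreed in size, with 0.00, 1.21 and 3.65 beside 3.09, as did those of Ahnak, with 0.70 and 1.40 in bright ones beside 3.996.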

How the data were processed

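RNA of sorted marrow cells was amplified with a whole transcriptome kit, labelled with biotin and read on 8 one-colour arrays, per the labels' protocols. The authors deposited log2 values for 45141 probe sets, for which the submitters' processing notes name RMA and Partek. Versions and settings were not given in the sources used here. RMA normalizes the arrays together, so a level depends on the other arrays too.

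Probe sets were named from the platform annotation (28898 with 1 symbol, 551 with several, 15692 not listed, 28689 matched to RefSeq by Entrez number). Each of 17097 genes was represented by its brightest probe set on average over the 8 arrays, and the 11583 above the array median on at least 2 arrays were tested. The main test was limma 3.58.1 (R 4.3.3) on the 4 KO arrays by group, two-sided, with Benjamini-Hochberg adjustment. With 2 residual degrees of freedom the spread rested mostly on the estimate over all genes (22.9 prior degrees of freedom, against 4 and 3.81 with 8 arrays). The scripts were tested on simulated data. A fold marked "at least" sets values below the array median to it, a floor chosen after seeing the data.

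Replicate numbers mark 2 processing dates, per the series design, so they pair the samples. Deviations from the group means correlated at 0.186 between KO ALP and KO preproNK and at 0.149 to 0.807 over all pairs of groups. The fit reported first had no block.

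Genes were named by rule: the 12 largest called rises and falls, from each list up to 8 called members by size and up to 3 against the direction of most, up to 3 of a list with no call, 12 genes always, and 5 each way in the interaction. Other named members were chosen after their values were seen. The members and lists were chosen with earlier results of these data known. Alternatives changed the samples, the block, the filter, the probe set rule, the scaling and the variance trend.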

Additional observations from a re-analysis of the deposited data

Results flagged for a closer look

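Among the 122 called named genes, 4 that rose in KO had both KO pairs up and both WT pairs down. The pattern was looked for only in named genes, so no share over all tested genes stands beside it. The WT replicate 2 pair contains the array that stood apart. Of all 746 risen genes, 497 were higher in that pair, against 720 in the replicate 1 pair, so a fall there marks little. For Il17re, an interleukin 17 family receptor chain, WT values were 6.49 and 6.61 in ALP and 5.95 and 6.35 in preproNK, and the KO step exceeded the WT step by 1.77 (SE 0.52). Klrb1f had WT values of 6.78 and 5.82, then 6.58 and 5.12, and a difference between the steps of 1.63 (SE 0.80). Klrd1, which encodes CD94, had WT values of 3.48 and 2.96, then 3.36 and 2.82, all below the array medians, and a difference of 1.67 (SE 0.62). Nkg7 had WT values of 8.15 and 6.20, then 7.41 and 6.09, and a difference of 1.97 (SE 1.11). None of the 4 differences was called by the interaction test (limma over 8 arrays, adjusted p = 1.00 for each).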

How the results depend on the processing

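Calls depended most on which arrays gave the spread. With all 8 arrays 203 genes were called (141 risen, 62 fallen), with all 8 and the replicate block 449 (300 and 149), with all but WT preproNK replicate 2, an alternative added after seeing the data, 530 (369 and 161), and without the filter, over 17097 genes, 649 (429 and 220). The replicate block in the 4 KO arrays called 1594 and lost none, but it leaves the differences unchanged, so this is no separate check. Leaving out single KO arrays gave 524 to 953 genes, 355 to 757 risen and 169 to 455 fallen. Other alternatives gave 894 to 1391. The interaction called 0 genes in every fit run. Genes past 1 log2 in both pairs numbered 979, and 845 to 980 otherwise. Of 122 called named genes, 56 were called with all 8 arrays. None changed sign in any of the 15 fits. Fits that change only the spread, the block, the trend or the filter leave the differences as they were. In the others, the choice of called genes largely fixes the sign, so this is no further support. Among named genes not called, leaving out single arrays turned Eif2s3y (-0.76 to 1.45), Kdm5d (-0.86 to 1.14), Xist (-3.25 to 2.95), Mcpt8 (-0.48 to 3.59) and Nfil3 (-0.44 to 0.29). The cause of these changes was not tested, beyond fewer samples or more genes tested where the alternative makes them so. With 2 arrays a group, differences of genes below the array median have only a bound.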

Other observations

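Further gene families, listed after their values were seen, also moved from KO ALP to KO preproNK. Of 5 Schlafen genes, regulators of lymphocyte quiescence and growth, 3 rose, led by Slfn1 from 3.68 and 4.10 to 9.03 and 9.66 (at least 40.2-fold), with Slfn2 up by 3.85 and Slfn5 by 2.32. Of 30 interferon-inducible genes 10 rose and 2 fell (33.3% and 6.67%). Zbp1, a sensor of nucleic acids, rose from 4.37 and 3.91 to 8.73 and 8.67 (at least 22.8-fold), Gbp8 by 2.92 and Gbp2 by 2.43, while Ifitm1 and Ifitm2 fell by 1.66 and 1.75. The 10 rises of that list were 7 without KO ALP replicate 2 or KO preproNK replicate 1, and 2 with 8 arrays. The falls were 0 without KO ALP replicate 1 or KO preproNK replicate 1 and with 8 arrays. Of 23 members of the tumour necrosis factor family 5 rose and 1 fell (21.7% and 4.35%, beside 6.44% and 4.21% of all tested genes). Cd40lg, the ligand by which T cells help B cells, rose from 2.88 and 3.47 to 7.52 and 6.92. Tnfrsf25 rose from 4.41 and 4.62 to 8.49 and 8.43, and Tnfrsf21 fell by 1.63.

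Of 7 kinases next to antigen receptors 4 rose and 2 fell. The Tec kinase Txk of T and NK cells rose from 3.37 and 3.54 to 7.45 and 7.20, whereas Btk, its relative of B and myeloid cells, fell from 7.51 and 6.12 to 3.83 and 4.12. Syk fell from 9.15 and 8.85 to 5.02 and 6.29 (10.2-fold), beside the rise of Zap70, its relative of T and NK cells. The Src family kinases Blk, known from B cells and gamma delta T cells, and Fyn rose by 4.74 and 1.37, and Tec differed by 0.06 (adjusted p = 0.991). Of 5 SOX factors Sox13 rose and Sox4 and Sox12 fell, Sox12 from 7.64 and 7.46 to 5.08 and 5.13. Klf6 rose from 5.72 and 4.10 to 9.06 and 8.68 (15.6-fold), and Hoxa3 fell from 7.88 and 7.25 to 4.68 and 4.62. Of 12 sphingosine and purine receptors 3 rose and 3 fell, with S1pr1 up by 4.68 and P2ry13 down from 7.24 and 6.77 to 4.25 and 3.89. These lists were made from the values they describe, so their counts support nothing further.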
